A study of Mus musculus with 8 samples.

Results

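The aryl hydrocarbon receptor genes, their inducible targets and the UGT1A enzymes were described here in mouse mpkCCD cells exposed to the vasopressin antagonist tolvaptan. The 10 genes were taken from the table by symbol: Ahr, Arnt, Ahrr, Tiparp, Cyp1a1, Cyp1b1, Ugt1a1, Ugt1a6a, Ugt1a6b and Ugt1a7c. They were 10 of the 55414 genes in the expression table, and each was above 0 in at least 1 library. mpkCCD is a line derived from cortical collecting ducts of transgenic SV-PK/Tag mice, and a single subclone selected for high aquaporin-2 was used, so every library comes from 1 clone of 1 line. All cells were confluent on permeable supports and received the V2 receptor agonist dDAVP at 0.1 nM. With dDAVP kept in the medium, they then received either vehicle or 50 nM tolvaptan, and RNA was taken after 24 h, with 4 libraries in each group, called tolvaptan and dDAVP below. There was no group without dDAVP, so each comparison is of blocked with agonist-stimulated cells. The labels do not say whether the libraries came from separate cultures, and the p-values therefore measure the spread between these libraries, which may be technical.

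The aryl hydrocarbon receptor (AhR) is a transcription factor that waits in the cytoplasm bound to HSP90 chaperones until a ligand such as a dioxin, a polycyclic hydrocarbon or a tryptophan product binds it. It then pairs with ARNT in the nucleus and binds xenobiotic response elements, whose core is GCGTG. Its best known targets are the cytochromes CYP1A1 and CYP1B1, which oxidize planar compounds, the UGT1A6 enzymes, which attach glucuronic acid to small phenols so that they can be excreted, and the feedback inhibitors AHRR and TIPARP. The mouse Ugt1a enzymes come from 1 locus on chromosome 1, in which alternative first exons are spliced to the same set of last exons.

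Ugt1a6a showed the widest change of the 10 genes. Its level was 8.47-fold lower with tolvaptan, from 6.54 ± 1.20 to 0.772 ± 0.144 TPM (mean ± SD, n = 4 each), the share of transcripts scaled to a fixed total per library. Cyp1b1 was lower by a smaller margin, 7.02 ± 0.408 against 4.85 ± 0.458 TPM (SD, n = 4 each). In these bulk libraries, fewer cells with the transcript and less of it per cell cannot be told apart. The other 8 genes did not pass the test, and among them the receptor genes Ahr and Arnt and the target gene Tiparp were each between 54.55 and 86.41 TPM in all 8 libraries. Cyp1a1 and Ahrr were listed near 0 in both groups.

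The first sequences shown are the 250 bases before the RefSeq start of 5 of these genes (assembly GRCm38.p6), since the AhR acts through the GCGTG core. A promoter was matched for 8 of the 10 genes, all but Ahr and Ugt1a6b. Capitals mark every GCGTG, read on either strand, so that a core on the other strand appears as CACGC. The Ugt1a6a window is chr1:88134559-88134808 (plus strand), that of Cyp1b1 is chr17:79715062-79715311 (minus strand), that of Cyp1a1 is chr9:57697363-57697612 (plus strand), that of Tiparp is chr3:65528197-65528446 (plus strand) and that of Ahrr is chr13:74292332-74292581 (minus strand).
Ugt1a6a: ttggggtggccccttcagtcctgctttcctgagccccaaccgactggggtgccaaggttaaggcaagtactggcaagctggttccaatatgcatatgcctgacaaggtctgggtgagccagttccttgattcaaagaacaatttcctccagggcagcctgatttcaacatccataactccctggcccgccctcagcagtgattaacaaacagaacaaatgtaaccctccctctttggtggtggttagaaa
Cyp1b1: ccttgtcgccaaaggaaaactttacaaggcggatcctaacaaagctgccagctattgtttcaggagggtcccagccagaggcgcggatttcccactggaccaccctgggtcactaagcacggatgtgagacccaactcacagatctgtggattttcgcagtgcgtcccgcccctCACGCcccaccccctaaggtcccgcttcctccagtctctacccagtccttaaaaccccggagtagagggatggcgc
Cyp1a1: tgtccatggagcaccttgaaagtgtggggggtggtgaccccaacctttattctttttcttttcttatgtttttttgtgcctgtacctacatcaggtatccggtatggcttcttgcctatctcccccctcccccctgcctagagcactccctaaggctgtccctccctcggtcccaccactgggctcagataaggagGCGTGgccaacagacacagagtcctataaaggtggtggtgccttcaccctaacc
Tiparp: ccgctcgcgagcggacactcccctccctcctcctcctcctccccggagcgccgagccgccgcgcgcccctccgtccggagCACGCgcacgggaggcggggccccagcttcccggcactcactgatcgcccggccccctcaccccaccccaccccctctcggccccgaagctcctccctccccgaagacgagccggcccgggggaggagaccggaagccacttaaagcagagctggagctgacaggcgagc
Ahrr: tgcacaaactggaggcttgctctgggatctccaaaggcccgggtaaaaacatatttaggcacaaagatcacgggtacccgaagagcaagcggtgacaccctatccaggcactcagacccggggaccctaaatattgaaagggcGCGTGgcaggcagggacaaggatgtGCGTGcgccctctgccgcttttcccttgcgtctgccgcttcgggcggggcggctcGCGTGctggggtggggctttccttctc

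A core was found in 5 of the 8 promoters, and 28.2% of the 32851 RefSeq mouse promoters of the same length held at least 1. Ahrr held 3 cores, and Cyp1b1, Cyp1a1, Tiparp and Arnt held 1 each. The windows of Ugt1a6a, Ugt1a1 and Ugt1a7c held none. Of the genes that were lower with tolvaptan, Cyp1b1 therefore has a core in its window and Ugt1a6a does not. The Cyp1b1 core is on the other strand, 76 bases before the start. For Ugt1a6a the absence holds for the RefSeq start only. Its window ends at position 88134808, and the 954-base first exon of the GENCODE M21 transcript Ugt1a6a-201 ends at 88139331. The window therefore does not adjoin that exon, and the bases directly before the exon were not searched. The short CRE element TGACG, to which CREB binds after cAMP signals, was found on either strand in 1 of the 8 promoters, that of Arnt, against 17.8% of all promoters. The antioxidant response core TGACNNNGC was also found only in Arnt, against 10.2% of all promoters. These matches describe the letters of the 250-base windows alone. Bases further before the start were not searched for any gene, so a match or its absence does not tell whether the AhR acts on the gene. In Arnt the first pair of the 3 short CRE matches, 239 and 236 bases before the start, overlap as the opposite strands of 1 palindrome, and neither antioxidant core overlaps them.

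The second set of sequences shows why the UGT1A genes have to be read together. Each line gives the last 30 bases of the gene's own variable exon and, in capitals, the first 30 bases of the exon that follows, as annotated in GENCODE M21 on GRCm38 chromosome 1, plus strand. The shared exon starts at position 88215044 in all 4 genes, and the variable exon ends at 88139331 in Ugt1a6a, 88107799 in Ugt1a6b, 88212871 in Ugt1a1 and 88095978 in Ugt1a7c.
Ugt1a6a: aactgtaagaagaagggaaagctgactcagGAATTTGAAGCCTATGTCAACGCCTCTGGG
Ugt1a6b: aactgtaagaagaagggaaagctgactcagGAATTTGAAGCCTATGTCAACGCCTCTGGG
Ugt1a1: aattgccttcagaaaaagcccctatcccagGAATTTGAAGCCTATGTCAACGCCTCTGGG
Ugt1a7c: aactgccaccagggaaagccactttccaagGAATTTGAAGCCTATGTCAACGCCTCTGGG

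Ugt1a6a and Ugt1a6b carried the same letters over the whole stretch shown, and their variable exons, 954 and 938 bases long, were 94.9% identical. The variable exons of Ugt1a1 and Ugt1a7c were 57.0% and 54.3% identical to that of Ugt1a6a. Of all 50-base windows of the transcripts, 47.9% were found in no other gene for Ugt1a6a, 46.3% for Ugt1a7c, 20.2% for Ugt1a6b and 19.8% for Ugt1a1, against 96.0% to 100% for the 6 other genes. These shares describe GENCODE M21, which is not the Ensembl release on which the authors' reads were divided. The windows also treat each read alone, although the libraries were paired-end. The TPM of each Ugt1a gene is thus an estimate made by the authors' software, since much of each transcript is shared.

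**Figure D1:**
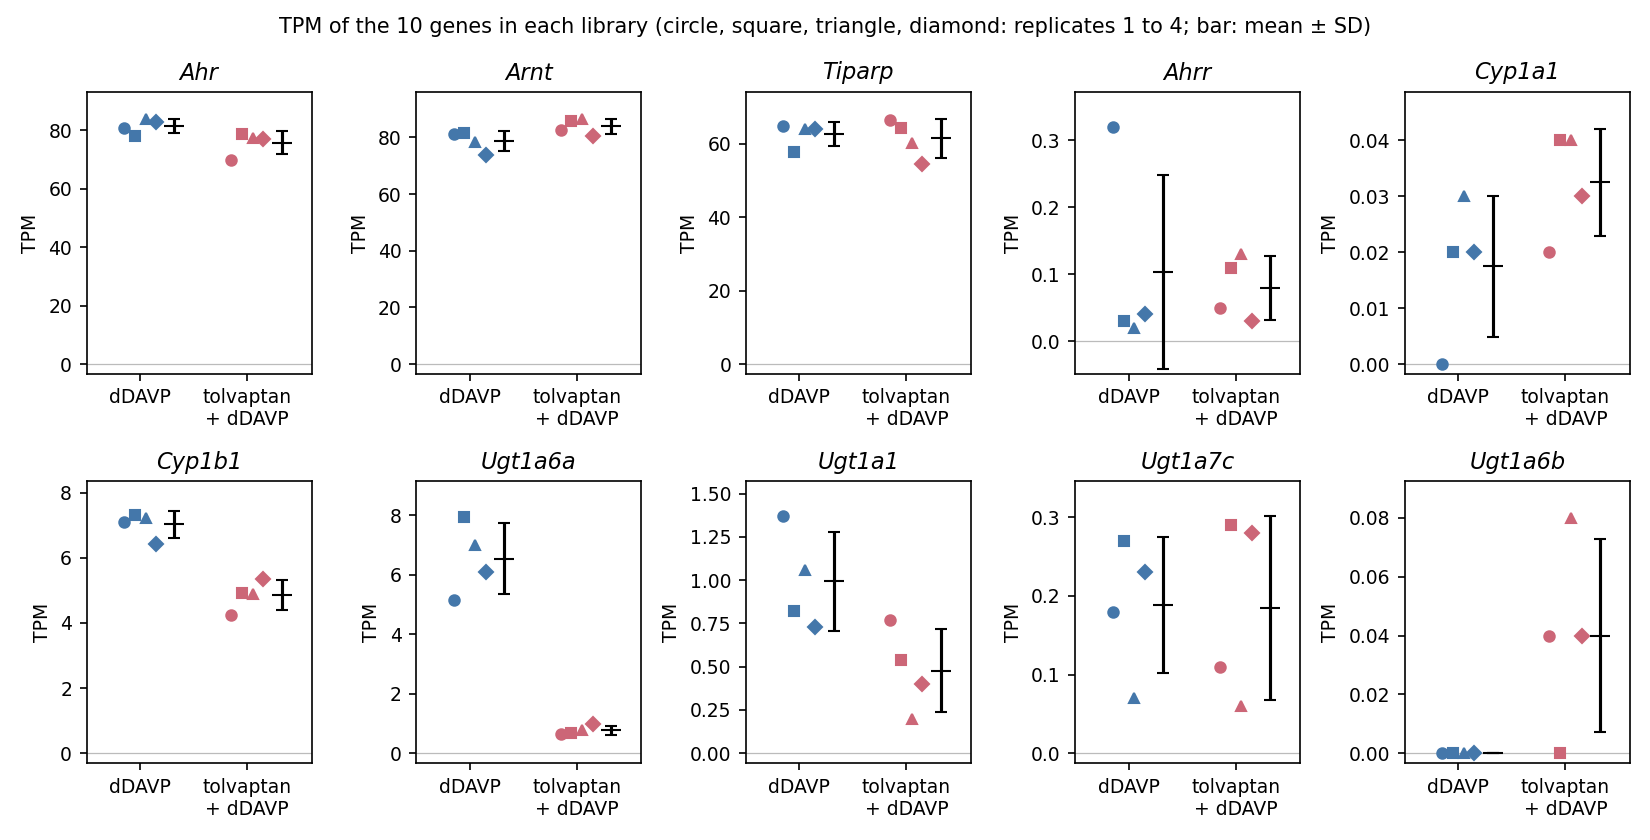
TPM of the 10 genes in each of the 8 libraries, 1 panel a gene with its own linear axis, with a marker for each library, shaped by replicate, and the group mean ± SD beside the 4 markers of each group. Ugt1a6a was 5.14 to 7.94 TPM in the dDAVP libraries and 0.66 to 0.97 TPM in the tolvaptan libraries, and only Ugt1a6a and Cyp1b1 had groups that did not overlap.

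The treatment check came first. Aqp2, the water channel gene that vasopressin induces, was 3050 ± 164 TPM with dDAVP and 272 ± 46.3 TPM with tolvaptan (SD, n = 4 each), and Avpr2, the V2 receptor gene, was 268 ± 8.24 and 202 ± 12.2 TPM. Of 10 markers of principal cells, 8 were over 10 TPM, and of 18 markers of other kidney cell types, vessels, fibroblasts, leukocytes and hepatocytes, 16 stayed under 1 TPM in every library. Of 5 further markers, of intercalated cells, the other cell type of the collecting duct, 4 stayed under 1 TPM. The fifth, the proton pump subunit gene Atp6v1b1, was 42.3 to 77.55 TPM, with means of 53.9 TPM with dDAVP and 67.4 TPM with tolvaptan. The summed level of those 18 markers was 14.8 to 16.2 TPM with dDAVP and 17.7 to 19.6 TPM with tolvaptan. Most of it came from the endocytic receptor gene Lrp2 (means of 8.17 and 11.2 TPM) and the leukocyte marker Cd68 (5.98 and 5.78 TPM). The 10 principal cell markers, Aqp2 included, summed to 10200 to 10800 TPM with dDAVP and 5150 to 6390 TPM with tolvaptan. Most of that sum was Aqp2 and the keratin genes Krt18 (means of 5040 and 3520 TPM) and Krt19 (1460 and 864 TPM), so it does not stand for each marker. Scnn1a was higher with tolvaptan (125 and 194 TPM). Gata3 (258 and 243 TPM), Hoxb7 (257 and 226 TPM) and Hsd11b2 (42.9 and 43.2 TPM) differed less. The part of all these markers in the results was not tested. The hepatocyte markers Alb, Apoa1 and Ttr, of interest because UGT1A enzymes are abundant in liver, summed to at most 0.05 TPM with dDAVP and 0.29 TPM with tolvaptan. Between 24795 and 27353 genes were above 0 in the dDAVP libraries and between 27991 and 30407 in the tolvaptan libraries, a difference without overlap whose part in the values of genes near 0 was not tested. TPM keeps no read depth, so the depth behind each value is unknown.

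Every gene was tested with limma on log2(TPM + 1), in 1 of 2 fits. Genes with a maximum over 10 TPM, 9943 in number, formed the first fit and included Ahr, Arnt and Tiparp. The other 7 of the 10 genes did not reach 10 TPM and were tested in a fit over all 39780 genes that were above 0 in at least 1 library. All fold changes and standard errors (SE) below are of tolvaptan over dDAVP on the log2(TPM + 1) scale, which understates the change of low genes. Adjusted p-values are 2-sided, after Benjamini and Hochberg over all genes of the fit, with 0.05 as the threshold.

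In the first fit, 0 of the 3 genes were lower and 0 were higher, where 6.10% of all genes were lower and 10% higher. Their groups overlapped in all 3 cases, where 7.99% of genes were lower and 15.1% higher without overlap. In the second fit, 2 of the 7 genes were lower and 0 higher, where 1.06% of all genes were lower and 1.25% higher. The same 2 genes were the ones whose groups did not overlap, beside 2.49% of genes that were lower and 7.06% that were higher without overlap. The direction of the background in the second fit depended on the scaling of the libraries: 422 genes were lower and 498 higher as deposited, 642 and 198 after the libraries were set to a common median, and 480 and 301 after quantile normalization. In the first fit these counts were 607 lower and 994 higher as deposited, 825 and 576 with a common median, and 680 and 612 with quantile normalization. At an unadjusted p under 0.05, 3 of the 10 genes were lower and 0 higher, the third being Ugt1a1. All 3 belonged to the second fit, in which 3.25% of all genes were lower and 10.5% higher at that threshold, against 9.92% and 21.0% in the first fit.

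**Figure D2:**
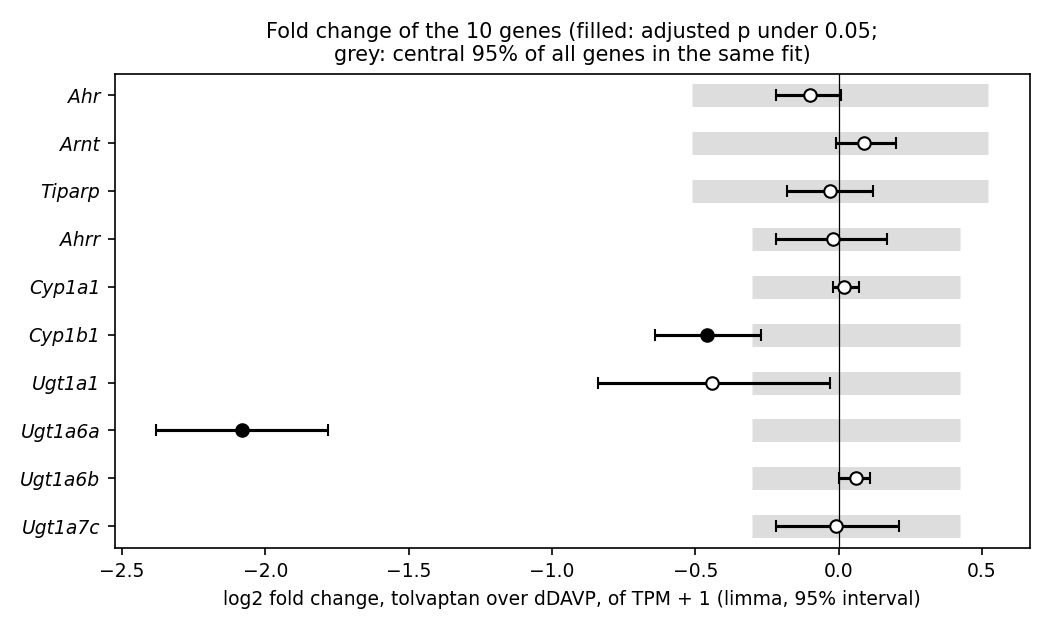
log2 fold change of TPM + 1, tolvaptan over dDAVP, for the 10 genes, with 95% confidence intervals from limma and filled points for an adjusted p under 0.05. Ugt1a6a stands at -2.08 and Cyp1b1 at -0.46, and the other 8 points are open.

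Ahr encodes the receptor itself. Its level was 80.91, 78.27, 83.96 and 82.92 TPM in the dDAVP libraries and 69.97, 78.74, 77.49 and 76.99 TPM in the tolvaptan libraries. One tolvaptan library lay above the lowest dDAVP library and the groups overlapped. The log2 fold change was -0.10 (SE 0.05, 95% interval -0.22 to 0.01, limma adjusted p = 0.184).

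Arnt encodes the partner that the ligand-bound receptor needs to bind DNA, and it also serves the hypoxia factors. The dDAVP libraries were at 81.13, 81.47, 78.18 and 73.82 TPM and the tolvaptan libraries at 82.71, 85.79, 86.41 and 80.56 TPM. The lowest tolvaptan library fell within the dDAVP range, and the log2 fold change of 0.09 did not pass (SE 0.05, 95% interval -0.01 to 0.20, limma adjusted p = 0.22). The ratio of Arnt to Ahr TPM was 0.966 ± 0.0681 with dDAVP and 1.11 ± 0.0568 with tolvaptan (SD, n = 4 each), a description without a test. The highest dDAVP ratio was 1.04 and the lowest tolvaptan ratio 1.05, so the groups were just separate. The ratio was not a planned result, and how many other gene pairs separate in this way was not determined. Among single genes over 10 TPM, 7.99% were lower and 15.1% higher without overlap, and neither Ahr nor Arnt was among them.

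Tiparp encodes an ADP-ribosyltransferase that is induced by the receptor and in turn restrains it. It was at 64.76, 57.84, 64.10 and 64.09 TPM with dDAVP and at 66.60, 64.41, 60.32 and 54.55 TPM with tolvaptan. The tolvaptan libraries spanned the whole dDAVP range. With a log2 fold change of -0.03 (SE 0.07, 95% interval -0.18 to 0.12, limma adjusted p = 0.789), Tiparp, which had the highest level among the targets in the 10 chosen genes, did not pass the test.

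Ahrr encodes the repressor that competes with the receptor for ARNT. It was listed at 0.32, 0.03, 0.02 and 0.04 TPM with dDAVP and at 0.05, 0.11, 0.13 and 0.03 TPM with tolvaptan, so that a single dDAVP library was higher than all others. The log2 fold change was -0.02 (SE 0.08, limma adjusted p = 0.911).

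Cyp1a1, the cytochrome used most widely as a readout of AhR activity, was listed at 0, 0.02, 0.03 and 0.02 TPM with dDAVP and at 0.02, 0.04, 0.04 and 0.03 TPM with tolvaptan. These values are a few steps of the table's last digit, 2 decimals, and the groups overlapped. The log2 fold change was 0.02 (SE 0.02, limma adjusted p = 0.592). A change of Cyp1a1 was not detectable at these levels.

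Cyp1b1 encodes the related cytochrome that oxidizes polycyclic hydrocarbons and estrogens. It was at 7.09, 7.32, 7.23 and 6.42 TPM with dDAVP and at 4.24, 4.93, 4.89 and 5.35 TPM with tolvaptan. The highest tolvaptan library was below the lowest dDAVP library. The level with tolvaptan was 69.2% of that with dDAVP, and the log2 fold change was -0.46 (SE 0.08, 95% interval -0.64 to -0.27, limma adjusted p = 0.0242). The call depended on which libraries were included: it was lost when dDAVP replicate 1, 2 or 3 was left out (adjusted p = 0.0838, 0.0898 and 0.0918 with limma) and when tolvaptan replicate 2 or 3 was left out (0.0668 and 0.0669).

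Ugt1a6a encodes the glucuronosyltransferase for simple phenols, and among the 9 Ugt1a genes of the table it was the highest in every dDAVP library. Its level was 5.14, 7.94, 7 and 6.08 TPM with dDAVP and 0.66, 0.67, 0.79 and 0.97 TPM with tolvaptan. Every tolvaptan library was below every dDAVP library, by 5.3-fold between the closest pair and 12.0-fold between the most distant. On average 11.8% of the dDAVP level was left. The log2 fold change was -2.08 (SE 0.13, 95% interval -2.38 to -1.78, limma adjusted p = 0.000101), and it passed in each of the 16 alternatives in which Ugt1a6a was tested, with adjusted p from 2.06e-05 to 0.0113. Its size follows from the constant added, and was -2.92 with 0.1 TPM and -0.99 with 5 TPM added.

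Ugt1a1 encodes the enzyme that conjugates bilirubin. The dDAVP libraries were at 1.37, 0.82, 1.06 and 0.73 TPM and the tolvaptan libraries at 0.77, 0.54, 0.20 and 0.40 TPM. Only the highest tolvaptan library reached into the dDAVP range. The mean with tolvaptan was 48.0% of that with dDAVP, but the log2 fold change of -0.44 did not pass (SE 0.18, 95% interval -0.84 to -0.03, limma adjusted p = 0.315), and it passed in 0 of 16 alternatives.

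Ugt1a6b, the close copy of Ugt1a6a, was listed at 0 in all 4 dDAVP libraries and at 0.04, 0, 0.08 and 0.04 TPM in the tolvaptan libraries. No fold can be given against a group listed at 0, and the difference on the log scale was 0.06 (SE 0.02, limma adjusted p = 0.365). Of the 50-base windows, 79.8% of those of Ugt1a6b and 52.1% of those of Ugt1a6a also occur in other Ugt1a genes. These shares count any other Ugt1a gene and do not measure the overlap of the pair alone. Because the variable exons of the pair are 94.9% identical, the split between them is uncertain. Ugt1a7c, another enzyme of the locus, was at 0.18, 0.27, 0.07 and 0.23 TPM with dDAVP and at 0.11, 0.29, 0.06 and 0.28 TPM with tolvaptan. The values overlapped over nearly their whole range, with a log2 fold change of -0.01 (SE 0.09, limma adjusted p = 0.986).

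The sum over the 9 Ugt1a genes depends less on how shared reads were divided among them, but it does not remove sharing with other genes. Of the Ugt1a1 windows, 19.8% were found in no other gene and 58.2% in other Ugt1a genes, and the rest only in genes outside these 9. For Ugt1a6a these shares were 47.9% and 52.1%. The sum was 7, 9.09, 8.23 and 7.09 TPM with dDAVP and 1.75, 1.64, 1.25 and 1.69 TPM with tolvaptan. The summed level was 4.96-fold lower, 7.85 ± 0.997 against 1.58 ± 0.226 TPM (SD, n = 4 each), and the groups were far apart. Ugt1a6a made up 82.9% of the sum with dDAVP and 49.8% with tolvaptan, Ugt1a1 made up 12.9% and 29.1%, and Ugt1a7c 2.41% and 11.3%. Without Ugt1a6a the sum was 1.31 ± 0.376 TPM with dDAVP and 0.81 ± 0.28 TPM with tolvaptan (SD, n = 4 each), with overlapping groups. The 5 Ugt1a genes outside the chosen set, Ugt1a2, Ugt1a5, Ugt1a8, Ugt1a9 and Ugt1a10, were at most 0.13 TPM in any library and 0 of them passed.

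**Figure D3:**
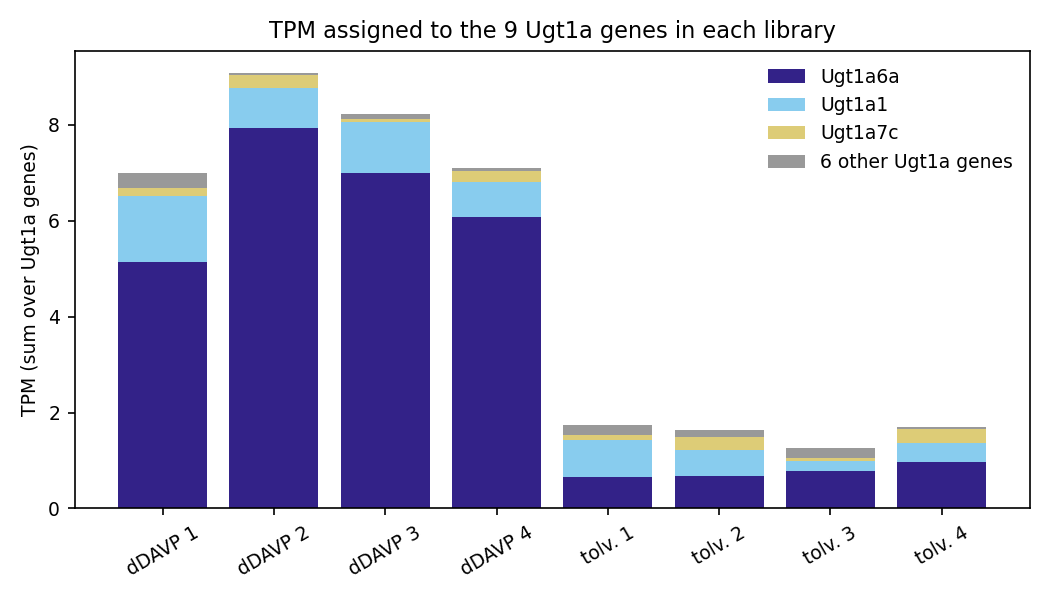
Summed TPM of the 9 Ugt1a genes in each library, as bars from 0 divided by gene. The dDAVP bars reach 7 to 9.09 TPM, mostly Ugt1a6a, and the tolvaptan bars reach 1.25 to 1.75 TPM.

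The genes most like Ugt1a6a were sought among the 9943 genes over 10 TPM, by the root mean square difference of their centred log2(TPM + 1) values over the 8 libraries. Ramp3, whose protein escorts calcitonin-family receptors to the membrane, came first with a difference of 0.123 and means of 12.2 TPM with dDAVP and 2.52 TPM with tolvaptan. It was followed by the water channel gene Aqp5, with a difference of 0.152 and means of 102 and 24.1 TPM. B3gnt7, which encodes a glycosyltransferase that extends sugar chains, came next with 0.187 and means of 102 and 25.8 TPM. All 3 are described by this likeness alone, which for such wide changes mainly reflects the size of the difference between the groups on the log2(TPM + 1) scale. On that scale Ugt1a6a was at -2.08, Ramp3 at -1.9, Aqp5 at -2.05 and B3gnt7 at -1.94. The match depends on the 1 TPM added, which understates the change of a gene as low as Ugt1a6a. With 0.1 TPM added Ugt1a6a was at -2.92, and with 5 TPM added at -0.99. The ranking with other constants was not determined.

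Around the 10 genes, 4 lists held 93 further genes of the pathway, of which 49 were over 10 TPM. Of these 49, 6 were lower (12.2%) and 4 higher (8.16%), beside 6.10% and 10% of all genes in that fit, and 39 did not pass. After the libraries were set to a common median, 12 (24.5%) were lower and 3 (6.12%) higher, beside 8.3% and 5.79% of all genes. After quantile normalization 7 (14.3%) were lower and 2 (4.08%) higher, beside 6.84% and 6.16% of all genes. The median log2 fold change of the 49 as deposited was -0.07, against 0.05 over all genes. Of the 44 listed genes that did not reach 10 TPM, 0 passed limma's test in the wider fit as deposited. Among them Vdr passed with both other scalings, as given below. At an unadjusted p under 0.05, as deposited, 2 of the 44 were lower and 2 higher, beside 3.25% and 10.5% of all genes in that fit.

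The first list, the AhR complex and its cofactors, had 14 of 15 genes tested, of which 0 were lower and 2 higher, with a median of 0.06. Hsp90aa1, a chaperone that holds the receptor in the cytoplasm, was 576.27, 590.66, 567.58 and 620.00 TPM with dDAVP and 730.85, 763.25, 661.58 and 686.35 TPM with tolvaptan. It was higher in every tolvaptan library (log2 fold change 0.27, SE 0.05, limma adjusted p = 0.00647). The acetyltransferase gene Crebbp, a coactivator shared by many factors, was higher at 26.4 against 22.0 TPM (0.26 on the log2 scale, limma adjusted p = 0.0184), a call that was lost without dDAVP replicate 4 (0.051), without the filter on low values (0.0555) and after quantile normalization (0.0556). Its relative Ep300 was at 0.39 (adjusted p = 0.0545), the receptor coactivator gene Ncoa2 at -0.23 (0.0591) and the NF-kB subunit gene Rela at 0.16 (0.126), none of which passed. Ncoa2 was lower past the threshold with a common median (adjusted p = 0.0267 with limma) and after quantile normalization (0.0191).

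Of 25 other genes that respond to the AhR in various tissues, 10 were tested, with 3 lower, 1 higher and a median of -0.08. Nqo1, a quinone reductase driven by both the AhR and NRF2, was 162.24, 168.37, 152.08 and 165.19 TPM with dDAVP and 148.51, 119.87, 128.03 and 130.13 TPM with tolvaptan. All tolvaptan libraries were below the dDAVP range (log2 fold change -0.30, SE 0.07, limma adjusted p = 0.013). Socs2, a suppressor of cytokine signaling, fell from 23.4 to 14.6 TPM (-0.65 on the log2 scale, limma adjusted p = 0.00416). The galectin gene Lgals3 fell from 546 to 440 TPM (-0.31, adjusted p = 0.0112), while the actin-severing protein gene Scin rose from 395 to 485 TPM (0.29, adjusted p = 0.000811). Without the filter on low values the calls of Nqo1 and Lgals3 were lost (adjusted p = 0.0575 for each). Abcg2, an efflux transporter gene that stayed under 10 TPM, was at -0.36 and did not pass (adjusted p = 0.168). The 15 genes under 10 TPM included Cyp1a2 and Aldh3a1, classical targets in liver that were near 0 here.

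In the glucuronidation list, 11 of 29 genes were tested and 0 passed limma's test in either direction, with a median of -0.07. At an unadjusted p under 0.05, 3 were lower and 1 higher, beside 9.92% and 21.0% of all genes. The count of 0 depended on the scaling: with a common median Ugp2, Slc35b1 and Gusb were lower (adjusted p = 0.0454, 0.0474 and 0.0217 with limma), and after quantile normalization Gusb alone (0.0268). Ugp2 and Ugdh, which make UDP-glucose and oxidize it to the UDP-glucuronate that all UGT enzymes use, were 88 against 73.0 TPM (-0.28 on the log2 scale, limma adjusted p = 0.0643) and 99.0 against 90.7 TPM (-0.13, adjusted p = 0.183). Gusb, the lysosomal enzyme that removes glucuronate, was at -0.11 (0.0832). Uxs1, which turns UDP-glucuronate into UDP-xylose, was at 0.22 (0.111), and the transporter gene Slc35b1 was at -0.13 (0.124).

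The last list held nuclear receptors and factors that act on UGT1A genes, and the proteins that supply cytochromes P450 with electrons and heme. Of 24 genes, 14 were tested, with 3 lower, 1 higher and a median of -0.08. Cyb5a, the cytochrome b5 that passes electrons to P450 enzymes, was 256.13 to 268.96 TPM with dDAVP and 201.68 to 224.71 TPM with tolvaptan, lower in every tolvaptan library (log2 fold change -0.28, SE 0.04, limma adjusted p = 0.00243). Por, the P450 reductase, was lower at 285 against 334 TPM (-0.24, limma adjusted p = 0.039), and Cyb5r3, the reductase of cytochrome b5, at 1070 against 1190 TPM (-0.15, adjusted p = 0.0483). Nr3c1, the glucocorticoid receptor gene, was higher at 38.7 against 33.9 TPM (0.18, adjusted p = 0.0427). These last 3 calls were fragile: those of Por and Cyb5r3 were kept only when tolvaptan replicate 4 was the library left out, with adjusted p up to 0.1 and 0.129 otherwise, and that of Nr3c1 was lost without any 1 of the dDAVP replicates and without tolvaptan replicate 2 or 3 (up to 0.118). After quantile normalization none of the 3 calls was kept (adjusted p = 0.0949 for Por, 0.214 for Cyb5r3 and 0.104 for Nr3c1 with limma), and with a common median that of Nr3c1 was lost (0.0862). Vdr, the vitamin D receptor gene, stayed under 10 TPM, was at -0.45 and did not pass as deposited (adjusted p = 0.0576). It passed with a common median (adjusted p = 0.034 with limma) and after quantile normalization (0.0213).

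**Figure D4:**
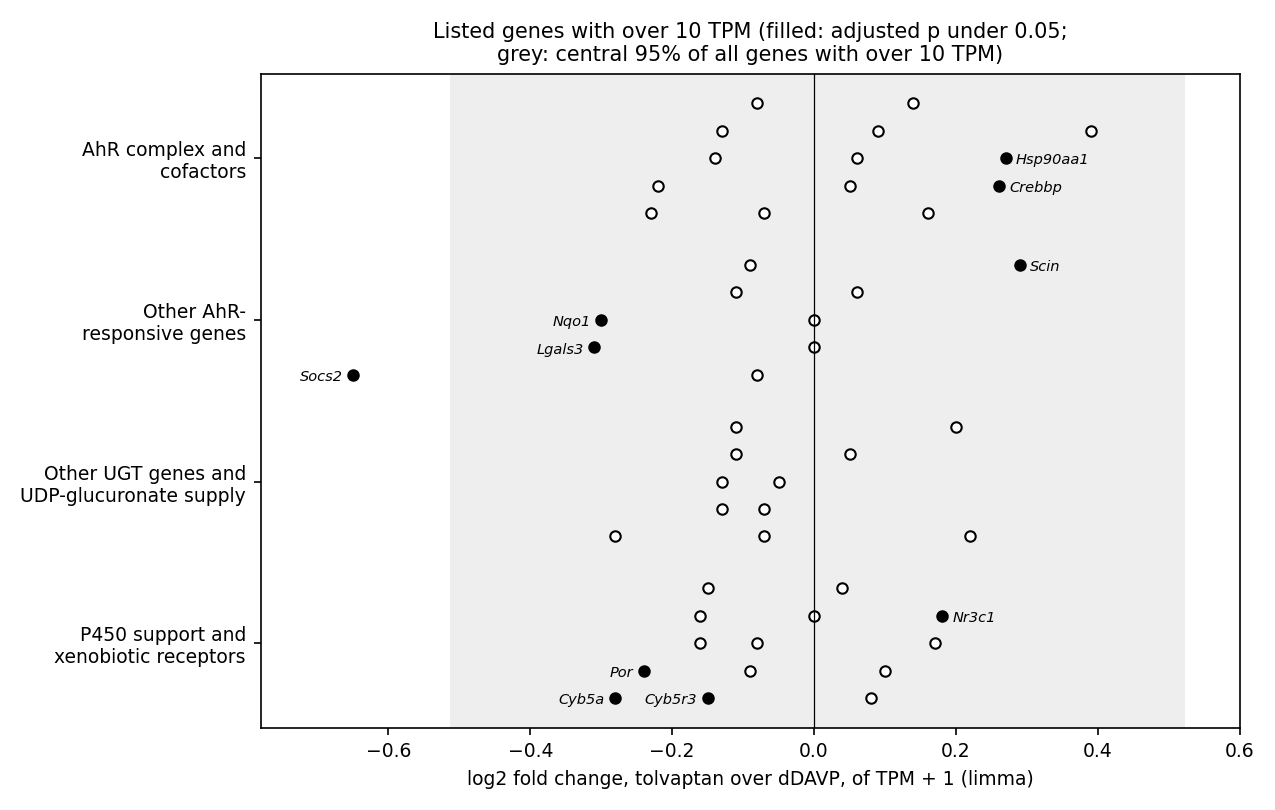
log2 fold change of TPM + 1, tolvaptan over dDAVP, of the 49 listed genes over 10 TPM, 1 row of points a list, filled for an adjusted p under 0.05 and named. The grey band is the central 95% of all 9943 genes, from -0.51 to 0.52, and of the named genes only Socs2 at -0.65 lies outside it.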

How the data were processed

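Total RNA of the 8 libraries was sequenced by the authors as paired-end reads after SMARTer and Nextera XT preparation. The deposited TPM values were made by the authors with STAR and RSEM on an Ensembl mouse release other than the annotation used here; the tools' versions are not given in the sources used here. RSEM divides reads shared between genes by a model, which bears on the Ugt1a genes. The authors' minimum and maximum columns were not used otherwise, and no read counts were used. Values were tested as log2(TPM + 1) with limma 3.58.1 in R 4.3.3, with a trend and no covariates, on genes with a maximum over 10 TPM or on all genes above 0. The script was tested on simulated data for genes with a maximum over 10 TPM, but not for the wider fit over all genes above 0. Groups came from the labels, and doses and time from the study's methods. The 10 genes, the lists and the tests were chosen with earlier results of these data known. Named genes were all 10, the other Ugt1a genes, Aqp2 and Avpr2, the 5 genes of smallest p in each list and the 3 most like Ugt1a6a; further genes are named as background to a count and were chosen after their values were seen. Alternatives changed the constant, the filter, the scaling, the variance model, the replicate block and the libraries used. Promoters came from RefSeq (GRCm38.p6) and transcripts from GENCODE M21.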

Additional observations from a re-analysis of the deposited data

Results flagged for a closer look

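Within groups of 4 libraries, single libraries far from the other 3 were looked for in 70 groups of values, and 9 were found. By chance such a gap appears in about 1 in 20 groups of continuous values, but a group with a single value above 0 meets it by construction, as in 5 of the 9. Ahrr was 0.32 TPM in dDAVP replicate 1, against 0.02 to 0.04 TPM in the other dDAVP libraries. In the same library Ugt1a2 was 0.12 TPM (0.05 to 0.06 in the others), Ugt1a5 0.06 TPM and Ugt1a8 0.13 TPM (both 0 in the others), so that 4 of the 9 fell in dDAVP replicate 1, which also had the most genes above 0 of the dDAVP libraries, 27353. Tiparp was 57.84 TPM in dDAVP replicate 2, below the 64.09 to 64.76 TPM of the other 3. Ugt1a10 was 0.05 TPM in dDAVP replicate 3 and 0.04 TPM in tolvaptan replicate 2, and Ugt1a9 was 0.04 TPM in tolvaptan replicate 3, each listed at 0 in the other libraries of the group. Ugp2 was 58.9 TPM in tolvaptan replicate 4, against 76.83 to 78.72 TPM in the other tolvaptan libraries.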

How the results depend on the processing

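Of 18 alternatives, 8 of which left out 1 library, 16 tested Ugt1a6a and Cyp1b1 anew. In 10 of these 16 the count of 2 lower genes among the 10 was kept. The remaining alternatives changed only the filter of the first fit, so the calls of Ugt1a6a and Cyp1b1 were fixed there in advance. Only Ahr, Arnt and Tiparp were tested anew in them, and none passed (adjusted p from 0.181 to 0.828 with limma). The count of 0 higher genes was kept in all 18, not all of which tested every gene anew. Ugt1a6a stayed lower throughout, from -2.17 to -1.99 with 1 library left out. The lower count was 1 with the replicate number as a block (Cyp1b1 adjusted p = 0.17) and 1 to 2 with 1 library left out. The block also reduced the calls over all genes from 607 lower and 994 higher to 396 and 515 in the first fit, and to 178 and 81 in the second. Libraries of the same number did not deviate together (correlations from -0.073 to -0.00463). The labels do not say whether they shared a culture or a preparation, and these correlations cannot decide it. Listed genes that were lower in the first fit numbered 2 without the filter and 12 with a common median. With 1 library left out they numbered 4 to 11 (11 without tolvaptan replicate 4). Those that were higher numbered 2 without the filter, 2 after quantile normalization and 2 to 6 with 1 library left out (2 without dDAVP replicate 4). The causes were not tested. Genes that had not passed changed sign in these cases: Ahrr at 0.01 with 0.1 TPM added and from -0.06 to 0.07 with 1 library left out, Cyp1a1 at -0.05 with a common median and -0.02 after quantile normalization, Ugt1a6b at -0.01 with a common median, and, with 1 library left out, Ugt1a7c from -0.05 to 0.05 and Tiparp from -0.07 to 0.02. Read depth is unknown, and values under 0.1 TPM lie close to the last digit of the table.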
